A study of Homo sapiens with 14 samples.

Results

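This section describes 34 genes of the NRF2 response and of cellular redox metabolism, chosen by name and matched by symbol to Ensembl identifiers, of 58825 gene identifiers in each count table. All 34 were found. They were grouped by role into 3 regulators, 6 glutathione genes, 4 thioredoxin genes, 4 genes of NADPH supply, 5 aldo-keto reductases, 5 quinone, carbonyl, epoxide and glucuronate enzymes, 4 transporters and 3 other targets. The measure was RNA abundance by RNA sequencing, given as CPM (counts scaled to library size, with 1 TMM scaling over all 22 libraries) and, to compare genes of different length, as RPKM (CPM divided by the length of the merged exons).

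OVCAR-3, CAOV3 and SKOV3, established lines grown from human ovarian cancers, were the source of the libraries. Cells received GSK-J4, an ester prodrug that inhibits JMJD3 and UTX, enzymes that remove methyl groups from histone H3, or GSK-J5, its isomer that serves as the inactive control. Both compounds were given at 2.5 µM, so each effect below is GSK-J4 relative to GSK-J5 and no library without a compound entered. OVCAR-3 was sampled at 48 h (2 libraries per compound) and at 72 h (3 per compound), and CAOV3 and SKOV3 at 72 h (3 per compound each). Replicates 1 and 2 were a first library set, whose treatment text names stripped medium and whose RNA was extracted with the RNeasy mini kit. Replicate 3 was a separate set, extracted with the RNeasy Plus kit and made into libraries by poly(A) enrichment, and its treatment text does not name stripped medium. Medium, kit, library preparation and replicate 3 cannot be told apart. For replicate 3 of OVCAR-3 with GSK-J4, the header ends in 73 where the labels give 72 h, and it matched no other sample. Since no label states that replicates came from separate cultures, p-values cover only the spread among libraries, which may be technical.

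NRF2, encoded by NFE2L2, is a transcription factor that KEAP1 holds in the cytoplasm and delivers for degradation. Electrophiles and oxidants modify KEAP1, and NRF2 then enters the nucleus, pairs with a small MAF protein such as MAFG and binds antioxidant response elements. Its targets make and recycle glutathione and thioredoxin, supply NADPH, reduce quinones and carbonyls, and export conjugates, and the pathway is known in ovarian cancer for its link to drug resistance.

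Libraries held between 24037007 and 37990707 counts. A count of 0 allows a level of up to 3 counts, which is 0.0771 to 0.159 CPM. Intervals and floors cover counting error only. Epithelial markers were detected 5 of 5 in every group, with summed levels of 5300 to 8520 CPM in OVCAR-3, 6000 to 6740 in CAOV3 and 729 to 975 in SKOV3. The 5 leukocyte markers summed to 0.166 to 5.77 CPM in OVCAR-3 and SKOV3 and to 55.1 to 114 in CAOV3, where PTPRC and CD3E were at 0. The 5 fibroblast markers summed to 7.35 to 49.8 CPM in OVCAR-3, 30.3 to 55.6 in CAOV3 and 394 to 538 in SKOV3. In SKOV3 most of that sum was COL1A1 (mean 416 CPM with GSK-J5), and CDH1 was at 0.457 to 9.75 CPM with GSK-J5. In OVCAR-3 at 48 h the summed epithelial level was 8150 to 8190 CPM with GSK-J5 and 5300 to 5550 with GSK-J4. The fibroblast sum was 38.9 to 40.1 and 12.2 to 13.7 CPM in these groups. Nearly all of it was COL1A1 (means of 39.1 and 12.8 CPM), and COL3A1 held 1 count with GSK-J5 and 0 with GSK-J4. The epithelial markers did not move together: from GSK-J5 to GSK-J4 the mean of KRT8 went from 5300 to 2480 CPM and that of KRT18 from 1600 to 699, while KRT7 went from 609 to 1600, EPCAM from 382 to 359 and CDH1 from 280 to 283. The endothelial sum was 4.58 to 5.11 and 1.29 to 1.75 CPM in the same groups, and the ovarian and Mullerian sum 1340 to 1490 and 841 to 976. Mitochondrial ribosomal RNA took 0.0322% to 0.0961% of the counts in the OVCAR-3 libraries with GSK-J5 at 72 h and 0.257% to 0.381% with GSK-J4. In CAOV3 these shares were 0.266% to 0.276% and 0.257% to 0.333%. The part of these shifts in the results below was not tested. In such bulk samples, fewer cells of a kind and less RNA per cell cannot be told apart.

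The antioxidant response element has the core TGACNNNGC, and the related MARE and AP-1 core is TGANTCA. RefSeq start windows of GRCh38.p14, which run from 250 bases before to 50 bases after a start, were found for 27 of the 34 genes. On either strand the first core was in 13.3% of all 35116 windows and the second in 7.7%; both cores can overlap in 1 site. Counted by gene, the first was found in 9 of the 27 genes (KEAP1, GCLM, GPX2, TXNRD1, PGD, ME1, CBR1, EPHX1 and PIR), against 16.1% of all genes, and the second in 3 (ME1, OSGIN1 and PIR), against 9.4%. Such a match is a description of letters and not a binding site. The 5 stretches below show a core in genes of 4 roles described here: GCLM, TXNRD1, ME1 and PGD, and OSGIN1. They are read 5′ to 3′ on the gene's strand, capitals mark the core or its reverse complement, and positions count back from the start.
GCLM, chr1:93909456-93909484, minus strand, core from -34: ctttctcggctacgatttctGCTTAGTCA
TXNRD1, chr12:104215660-104215708, plus strand, core from -99: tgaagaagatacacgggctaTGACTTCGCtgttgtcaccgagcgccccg
ME1, chr6:83431160-83431208, minus strand, both cores from -137: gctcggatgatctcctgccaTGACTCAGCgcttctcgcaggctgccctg
PGD, chr1:10398843-10398891, plus strand, core from -201: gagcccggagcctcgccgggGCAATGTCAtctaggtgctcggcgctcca
OSGIN1, chr16:83953123-83953169, plus strand, second core from -97: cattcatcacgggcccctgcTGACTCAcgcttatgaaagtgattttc

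In OVCAR-3 at 48 h, 6 of the 32 genes tested rose with GSK-J4 and 1 fell. Those that rose were OSGIN1 (8.74-fold), GCLC (5.07-fold), ABCC3 (3.51-fold), TRIM16 (3.28-fold), TXNRD1 (2.58-fold) and MAFG (1.46-fold), and AKR1B10 fell from 33 counts to 0. These calls used edgeR's quasi-likelihood test at an adjusted p under 0.05 over all 17402 genes tested, of which 11.3% were higher and 7.63% lower. The median log2 fold change was 0.54 over the 32 genes and -0.03 over all genes. An unadjusted p under 0.05 was found for 19 of the 32 and for 41.7% of all genes. GPX2 and CBR3 had too few counts to be tested. With 2 libraries per compound, the GSK-J4 libraries stood wholly above in 24 genes and wholly below in 6, and in 2 the groups overlapped. This share was not taken over all genes, so a lack of overlap at 48 h says little about a single gene. Leaving out any 1 of the 4 libraries of 48 h left 1 library in an arm, assumed to vary like the others. Calls were therefore not read from these fits, and those above rest on 2 libraries per compound. The median log2 fold change was then 0.45 to 0.59 over the 32 genes and -0.08 to -0.03 over all genes. Without replicate 3 of 72 h, which enters through the shared estimate of the spread, 18 genes were higher and 5 lower, but 59% of all 17090 genes were then called (4980 higher and 5098 lower).

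After 72 h of treatment in OVCAR-3, 0 of the 30 genes tested passed. An unadjusted p under 0.05 was found for 22 of them and for 43.1% of all 16802 genes. The median log2 fold change was 0.95 over the 30 genes against -0.08 over all genes. The smallest adjusted p among them was 0.07 by edgeR's quasi-likelihood test, and 0.0298% of all genes were called. DESeq2's Wald test on the same libraries called 21 higher and 0 lower, and 37.7% of all genes (3344 higher and 2990 lower). In 21 of the 30 genes every GSK-J4 library stood above every GSK-J5 library, in 0 every one stood below, and in 9 the groups overlapped. Over all genes tested these shares were 22.5% above and 15.9% below. GPX2, AKR1B10, CBR3 and ABCC2 were not tested at 72 h.

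The 72 h libraries of OVCAR-3 differed in the size of the response. Over replicates 1 and 2 the median log2 ratio of mean CPM was 1.13 (30 genes), and in replicate 3 it was 0.59 (28 genes, since AKR1C1 and AKR1C2 had no count with GSK-J5). The log2 ratio was smaller in size in replicate 3 for 23 of 28 genes, and it was above 0 for 26 of 30 and 27 of 28 genes. These medians and counts within a set were not taken over all genes, so how far they are particular to these genes is not known. Fitted on replicates 1 and 2 alone, 25 of 30 genes were higher and 2 lower, where 34.6% and 37.1% of all 16281 genes were called higher and lower. Leaving out only the GSK-J5 library of replicate 3 gave 25 called genes (67.6% of all genes), and leaving out only its GSK-J4 library gave 27 (65.4%). When all 10 OVCAR-3 libraries were fitted together, the 72 h effect was called higher for 22 of 32 genes and lower for 0, against 22.9% and 20.9% of all genes.

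**Figure D1:**
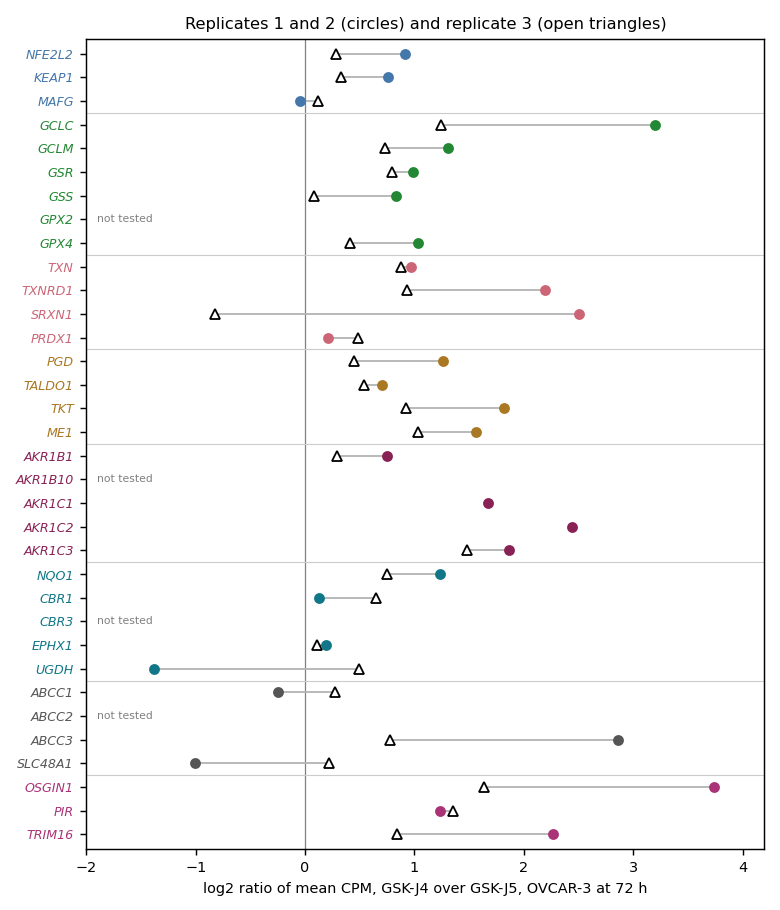
Log2 ratio of mean CPM, GSK-J4 over GSK-J5, in OVCAR-3 at 72 h for each gene, with circles for replicates 1 and 2, open triangles for replicate 3, colours for roles and grey lines between the values of a gene. OSGIN1 and GCLC lie farthest right in replicates 1 and 2 (3.74 and 3.20) and at 1.64 and 1.24 in replicate 3, while UGDH and SLC48A1 lie left of 0 in replicates 1 and 2 and right of 0 in replicate 3; AKR1C1 and AKR1C2 have no triangle because a library held no count.

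CAOV3 and SKOV3 showed no called gene of the 34. In CAOV3, 0 of 32 genes passed edgeR's quasi-likelihood test, where 0.315% of all 17137 genes were called, and DESeq2 called 1. An unadjusted p under 0.05 was found for 7 of the 32 and for 16.3% of all genes. The log2 fold changes ran from -0.70 to 1.25 with a median of 0.05. In SKOV3, 0 of 33 passed, where 0.0412% of all 16981 genes were called, and DESeq2 called 0. An unadjusted p under 0.05 was found for 2 of the 33 and for 3.5% of all genes. There the values ran from -0.35 to 0.44 with a median of 0.00. Without replicate 3, 4 of the 32 genes were higher and 3 lower in CAOV3, where 14.1% of all genes were then called, and 0 were called in SKOV3 (0.0908% of all genes). Leaving out either CAOV3 library of replicate 3 alone gave 5 higher and 3 lower, with 14.4% and 14.3% of all genes called.

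**Figure D2:**
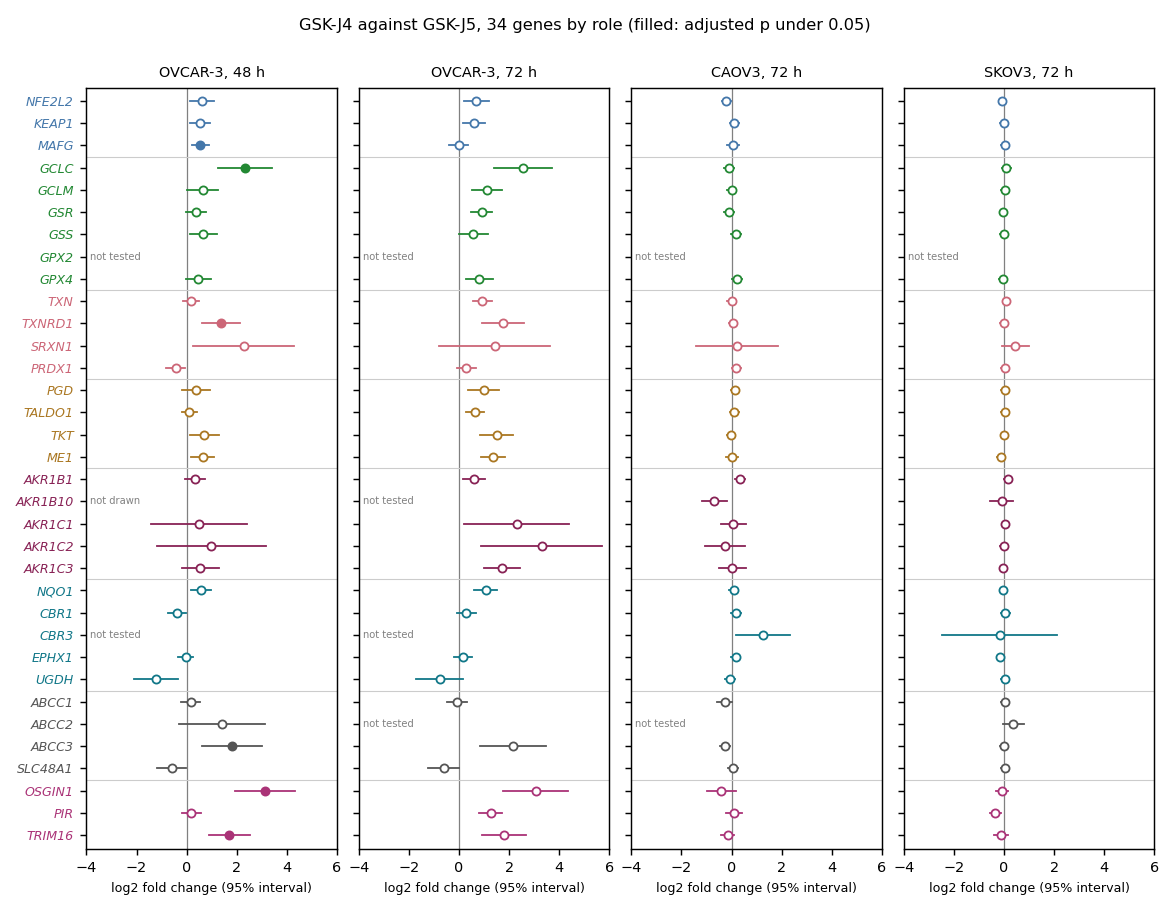
Log2 fold change of GSK-J4 against GSK-J5 with its 95% interval for the 34 genes, in OVCAR-3 at 48 h and 72 h and in CAOV3 and SKOV3 at 72 h. Filled circles mark an adjusted p under 0.05, colours mark roles, and AKR1B10 at 48 h is not drawn because its GSK-J4 libraries held 0 counts; the values spread to the right in both OVCAR-3 panels and lie near 0 in most rows of the other 2.

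Among the regulators, NFE2L2 (ENSG00000116044.16, chr2:177227595-177392697, GRCh38) encodes NRF2 itself. In OVCAR-3 at 48 h it was at 107 and 109 CPM with GSK-J5 and at 148 and 177 with GSK-J4. By 72 h it was at 92.2, 92.5 and 92.9 CPM with GSK-J5 and at 168, 178 and 112 with GSK-J4. The GSK-J4 libraries were above the GSK-J5 libraries at both times, with replicate 3 nearest to them. The log2 fold change was 0.62 ± 0.209 (SE) at 48 h and 0.68 ± 0.206 at 72 h, with adjusted p = 0.0675 and 0.0733 by edgeR's quasi-likelihood test. In CAOV3 its log2 fold change was -0.21 ± 0.0896 (adjusted p = 0.245), and in SKOV3 -0.08 ± 0.0648 (adjusted p = 0.999).

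KEAP1 (ENSG00000079999.14, chr19:10486120-10503741), which targets NRF2 for degradation, was at 105 and 107 CPM with GSK-J5 and at 155 and 148 with GSK-J4 in OVCAR-3 at 48 h. Its 72 h libraries were at 110, 105 and 95.7 CPM with GSK-J5 and at 182, 182 and 120 with GSK-J4, again without overlap. The log2 fold changes were 0.54 ± 0.17 (adjusted p = 0.0562) and 0.60 ± 0.179 (adjusted p = 0.0721). In CAOV3 and SKOV3 they were 0.11 ± 0.0874 and 0.00 ± 0.0689. MAFG, the small MAF partner, rose at 48 h from 76.9 and 86.2 to 124 and 109 CPM (log2 0.54 ± 0.152, adjusted p = 0.0439). In the 72 h libraries it was at 84.2, 75.4 and 89.4 CPM with GSK-J5 and at 84.4, 70 and 96.8 with GSK-J4, so that the groups overlapped.

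**Figure D3:**
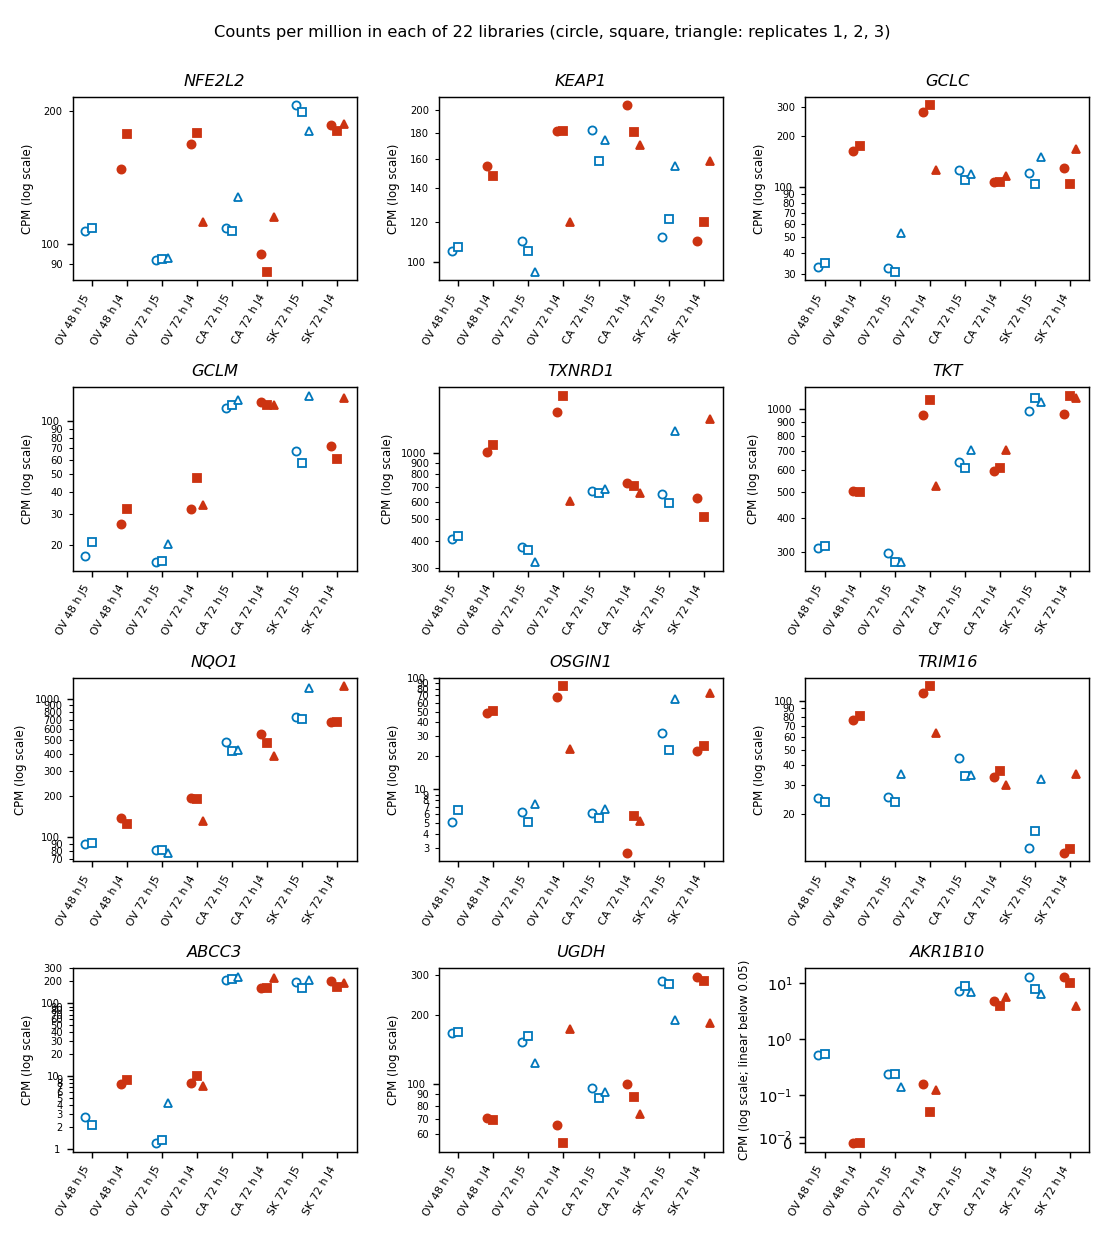
CPM of 12 of the genes in each of the 22 libraries, on a log axis of its own for each gene, with open symbols for GSK-J5, filled symbols for GSK-J4 and circles, squares and triangles for replicates 1, 2 and 3. OV, CA and SK stand for OVCAR-3, CAOV3 and SKOV3; OSGIN1 and GCLC separate by compound in OVCAR-3, and several genes separate by replicate 3 in SKOV3.

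The glutathione genes cover synthesis (GCLC, GCLM, GSS), reduction of the oxidised form (GSR) and its use against peroxides (GPX2, GPX4). GCLC (ENSG00000001084.12, chr6:53497341-53616970), the catalytic subunit of the rate-limiting ligase, rose at 48 h from 33.1 and 35.1 CPM to 164 and 175. Its log2 fold change was 2.34 ± 0.464 (95% interval 1.27 to 3.41), with adjusted p = 0.0228 by edgeR. At 72 h GCLC was at 32.8, 31.1 and 52.8 CPM with GSK-J5 and at 280, 307 and 125 with GSK-J4. The groups did not overlap, and the ratio was 9.18 in replicates 1 and 2 and 2.36 in replicate 3 (log2 2.56 ± 0.474 over all, adjusted p = 0.07). In CAOV3 GCLC was at 125, 110 and 119 CPM with GSK-J5 and at 107, 107 and 115 with GSK-J4, and in SKOV3 at 121, 103 and 150 and at 129, 103 and 167.

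GCLM (ENSG00000023909.10, chr1:93885205-93909456), the modifier subunit of the same ligase, differed less. It was at 17.3 and 20.8 CPM with GSK-J5 and at 26.1 and 32 with GSK-J4 at 48 h (log2 0.64 ± 0.262, adjusted p = 0.107). At 72 h it was at 16, 16.2 and 20.3 CPM and at 32.1, 47.9 and 33.7 (log2 1.10 ± 0.246, adjusted p = 0.07), without overlap. The difference between GCLC and GCLM was not tested. In CAOV3 and SKOV3 the log2 fold change of GCLM was 0.00 ± 0.0856 and 0.03 ± 0.0844. Of the other glutathione genes, GSR, which regenerates glutathione with NADPH, had log2 fold changes of 0.38 and 0.91 in OVCAR-3 at 48 h and 72 h. GSS, the second enzyme of synthesis, had 0.67 and 0.57, and GPX4, which removes lipid peroxides, 0.47 and 0.81. None of these passed. GPX2 held 0 to 10 counts in every library. Over the 5 testable glutathione genes the median log2 fold change was 0.64 at 48 h, 0.91 at 72 h, 0.00 in CAOV3 and -0.01 in SKOV3.

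In the thioredoxin system, TXNRD1 (ENSG00000198431.16, chr12:104215779-104350305), the cytosolic reductase that recharges thioredoxin with NADPH, rose at 48 h. It went from 406 and 419 CPM to 1010 and 1090 (log2 1.37 ± 0.329, adjusted p = 0.0332 by edgeR). After 72 h it was at 374, 363 and 320 CPM with GSK-J5 and at 1540, 1820 and 608 with GSK-J4. The groups were apart, with a ratio of 4.55 in replicates 1 and 2 and 1.9 in replicate 3 (log2 1.76 ± 0.338 over all, adjusted p = 0.07). TXNRD1 followed the library set in SKOV3, where replicate 3 was at 1260 CPM with GSK-J5 and 1430 with GSK-J4 and the other 4 libraries between 515 and 649. Its log2 fold change was -0.02 ± 0.0765 in SKOV3 and 0.06 ± 0.0737 in CAOV3.

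TXN, thioredoxin itself, was at 197 and 197 CPM with GSK-J5 and at 230 and 206 with GSK-J4 in OVCAR-3 at 48 h (log2 0.18 ± 0.143). By 72 h it was at 180, 170 and 113 CPM and at 328, 356 and 209 (log2 0.92 ± 0.153, unadjusted p = 0.000916, adjusted p = 0.07 by edgeR). TXN did not overlap at 72 h, when its ratio was nearly the same in both sets, 1.95 and 1.85. It did not overlap at 48 h either, where only 2 of the genes tested did. PRDX1, a peroxidase that thioredoxin recharges, had log2 fold changes of -0.43 at 48 h and 0.29 at 72 h, neither passing. SRXN1, which repairs over-oxidised peroxiredoxins, held 9 to 182 counts per library. Since 85% of its exon bases are shared with AL121758.1, annotated on the same strand, its values are uncertain.

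The NADPH genes are PGD and TALDO1 and TKT of the pentose phosphate pathway and ME1, the cytosolic malic enzyme. ME1 had the smallest unadjusted p of the 34 genes in OVCAR-3 at 72 h. It was at 26, 27.1 and 21.3 CPM with GSK-J5 and at 72.9, 83.2 and 43.3 with GSK-J4 (log2 1.37 ± 0.199, unadjusted p = 0.0005, adjusted p = 0.07 by edgeR). The groups did not overlap then or at 48 h, when it was at 33.6 and 32.4 and at 48.1 and 52.7 (log2 0.64 ± 0.194, adjusted p = 0.0524). TKT, transketolase, was at 310 and 316 CPM and at 503 and 499 at 48 h, and at 297, 277 and 276 and at 947, 1080 and 522 at 72 h. Its log2 fold changes were 0.71 ± 0.258 and 1.51 ± 0.269. PGD, 6-phosphogluconate dehydrogenase, had 0.38 and 0.98 and TALDO1, transaldolase, 0.11 and 0.63. In all 4 genes every GSK-J4 library of 72 h was above every GSK-J5 library, and the values of CAOV3 and SKOV3 lay between -0.11 and 0.15.

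The aldo-keto reductases reduce aldehydes and ketones with NADPH, and AKR1C1, AKR1C2 and AKR1C3 also act on steroids and prostaglandins. AKR1B10 (ENSG00000198074.10, chr7:134527592-134541408) was the single called gene that was lower at 48 h. It was at 0.516 and 0.554 CPM with GSK-J5 (33 counts in all) and at 0 in both GSK-J4 libraries, at least 9.96-fold lower against a floor of 3 counts over the group, with adjusted p = 0.022 by edgeR. At 72 h it was at 0.238, 0.241 and 0.138 CPM with GSK-J5 and at 0.159, 0.0514 and 0.126 with GSK-J4 (18 and 8 counts). The groups overlapped, and all values were close to the floor. In CAOV3 it was at 7.24, 9.09 and 7.02 CPM and at 4.79, 3.95 and 5.7, apart but not called (log2 -0.70 ± 0.24, adjusted p = 0.146). In SKOV3 it was at 12.8, 7.91 and 6.45 and at 13.1, 9.92 and 3.92.

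The AKR1C genes are near-identical paralogs whose reads may be split between them, and they are low in OVCAR-3. AKR1C3 was at 1.46, 1.92 and 1.42 CPM with GSK-J5 at 72 h and at 5.94, 6.37 and 3.96 with GSK-J4, without overlap (log2 1.72 ± 0.301, adjusted p = 0.07 by edgeR). AKR1C1 held 20 counts over the GSK-J5 libraries of 72 h and 56 over the GSK-J4 libraries (log2 2.30 ± 0.849), and AKR1C2 had a log2 fold change of 3.30 ± 0.981. Both had no count in the third GSK-J5 library. Summed with AKR1C4, the 4 paralogs had log2 fold changes of 0.59 at 48 h (adjusted p = 0.142) and 1.93 at 72 h (adjusted p = 0.07), and of 0.03 in CAOV3. In SKOV3, where AKR1C1 was at 409, 467 and 553 CPM with GSK-J5 and 433, 463 and 564 with GSK-J4, each of the 3 lay between -0.05 and 0.03. AKR1B1, aldose reductase, had log2 fold changes of 0.33 and 0.58 in OVCAR-3 and the smallest unadjusted p of the 34 in CAOV3 (0.34 ± 0.0872, unadjusted p = 0.00107, adjusted p = 0.0725 by edgeR). Its CAOV3 libraries were at 224, 211 and 199 CPM with GSK-J5 and at 317, 279 and 211 with GSK-J4, overlapping by replicate 3.

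Among the quinone, carbonyl, epoxide and glucuronate enzymes, NQO1 (ENSG00000181019.13, chr16:69706996-69726951), the quinone reductase often used as an NRF2 readout, was at 89.6 and 91.9 CPM with GSK-J5 and at 139 and 125 with GSK-J4 at 48 h. At the later time it was at 80.8, 80.9 and 77.6 CPM and at 191, 188 and 131. No library overlapped at either time, with log2 fold changes of 0.57 ± 0.179 (adjusted p = 0.0559) and 1.06 ± 0.185 (adjusted p = 0.07 by edgeR). In CAOV3 and SKOV3 they were 0.09 ± 0.0864 and -0.06 ± 0.057.

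UGDH, which makes the glucuronate donor for conjugation, had the opposite sign in OVCAR-3. It was at 166 and 168 CPM with GSK-J5 and at 70.9 and 69.1 with GSK-J4 at 48 h (log2 -1.22 ± 0.376, adjusted p = 0.0539 by edgeR). After 72 h it was at 152, 162 and 123 CPM and at 65.8, 54.8 and 173, so that replicates 1 and 2 were lower with GSK-J4 (ratio 0.384) and replicate 3 higher (ratio 1.41). CBR1, a carbonyl reductase, had log2 fold changes of -0.39 and 0.29 and EPHX1, the microsomal epoxide hydrolase, -0.04 and 0.15. In SKOV3 EPHX1 was at 380, 365 and 278 CPM with GSK-J5 and at 324, 326 and 267 with GSK-J4, overlapping by replicate 3 (log2 -0.15 ± 0.0596, adjusted p = 0.999). CBR3, a second carbonyl reductase, shares 42.2% of its exon bases with CBR3-AS1 and could be tested only in CAOV3 (1.25 ± 0.515, adjusted p = 0.226 by edgeR) and SKOV3.

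Of the transporters, ABCC3 (ENSG00000108846.16, chr17:50634777-50692252), an exporter of glutathione and glucuronide conjugates, rose at 48 h from 2.75 and 2.12 CPM to 7.88 and 8.95 (log2 1.81 ± 0.521, adjusted p = 0.0468 by edgeR). At 72 h it was at 1.19, 1.31 and 4.22 CPM with GSK-J5 and at 8.06, 10.1 and 7.26 with GSK-J4. These groups were apart too, with a ratio of 7.28 in replicates 1 and 2 and 1.72 in replicate 3. In CAOV3 ABCC3 was at 207, 212 and 232 CPM and at 162, 160 and 222 (log2 -0.27 ± 0.0915, unadjusted p = 0.00847, adjusted p = 0.144 by edgeR), overlapping through replicate 3. ABCC1, a related exporter, had log2 fold changes of 0.16 and -0.09 in OVCAR-3. SLC48A1, a haem transporter, had -0.60 at 48 h and -0.62 at 72 h, with ratios of 0.496 in replicates 1 and 2 and 1.16 in replicate 3. ABCC2, a further conjugate exporter, held 14 counts over the GSK-J5 libraries of CAOV3 and 0 over the GSK-J4 libraries, at least 4.4-fold lower against the floor over the group. It did not enter the test there, nor in OVCAR-3 at 72 h.

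OSGIN1 (ENSG00000140961.13, chr16:83948282-83966332), an oxidative stress induced growth inhibitor, had the largest change of the called genes that rose at 48 h. It went from 5.06 and 6.59 CPM to 48.8 and 51 (log2 3.13 ± 0.526, 95% interval 1.92 to 4.34, adjusted p = 0.0177 by edgeR). In the 72 h libraries it was at 6.23, 5.12 and 7.43 CPM with GSK-J5 and at 67.2, 84.6 and 23.2 with GSK-J4. The groups were far apart, with a ratio of 13.4 in replicates 1 and 2 and 3.12 in replicate 3 (log2 3.05 ± 0.522 over all, adjusted p = 0.07). In CAOV3 it was at 6.16, 5.55 and 6.69 CPM and at 2.7, 5.81 and 5.17 (log2 -0.42 ± 0.277, adjusted p = 0.484). In SKOV3 it was at 31.9, 22.5 and 65.3 CPM with GSK-J5 and at 22, 24.7 and 72.9 with GSK-J4, where the third library of each compound stood above the others.

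TRIM16, an E3 ligase protein with a near copy in the genome (TRIM16L), rose at 48 h from 25 and 23.6 CPM to 76.4 and 80.3 (log2 1.71 ± 0.354, adjusted p = 0.0247 by edgeR). At the later time it was at 25.4, 23.7 and 35.4 CPM and at 113, 124 and 63.6, without overlap. PIR, pirin, a nuclear iron-binding protein, was at 9.77 and 9.88 CPM and at 10.9 and 11 at 48 h (log2 0.18 ± 0.168). At 72 h PIR was at 7.9, 8.32 and 4.49 CPM with GSK-J5 and at 18.2, 19.9 and 11.5 with GSK-J4. That difference had nearly the same ratio in both sets, 2.35 and 2.55 (log2 1.26 ± 0.19, unadjusted p = 0.000561, adjusted p = 0.07). In SKOV3 PIR had the smallest unadjusted p of the 34 genes, with a log2 fold change of -0.35 ± 0.104 (unadjusted p = 0.00359, adjusted p = 0.831 by edgeR). Its libraries there were at 52.3, 51.2 and 30.4 CPM with GSK-J5 and at 35.7, 37.8 and 29.6 with GSK-J4, overlapping by replicate 3.

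An interaction term tested whether the effect in OVCAR-3 changed between the times. Of the 32 genes tested, 0 differed between 72 h and 48 h by edgeR's quasi-likelihood test, where 0.00575% of all genes were called, and DESeq2 called 4. An unadjusted p under 0.05 was found for 11 of the 32 and for 7.35% of all genes. The smallest unadjusted p-values were those of PIR (difference 1.10 ± 0.218 on the log2 scale, unadjusted p = 0.000908, adjusted p = 0.423), TXN (0.78 ± 0.185, adjusted p = 0.441) and PRDX1 (0.75 ± 0.211, adjusted p = 0.494), and that of AKR1B10, whose fitted difference is no measure of size because its GSK-J4 libraries of 48 h held 0 counts. For GCLC the difference was 0.24 ± 0.585, for TXNRD1 0.42 ± 0.422 and for OSGIN1 -0.05 ± 0.647. SEs of this size do not exclude a moderate change of either sign. Without replicate 3, 19 genes were higher at 72 h and 1 lower, and 27% of all genes were called (2030 higher and 2591 lower).

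The effect was then compared between lines over the 18 libraries of 72 h, with the library set as a term within each line. In this fit the spread of a gene is shared by the lines, so the SE can be smaller than in OVCAR-3 alone. From the same 18 libraries, the 72 h effect in OVCAR-3 was called for 26 of 33 genes, against 0 of 30 from its own libraries. Against CAOV3, 21 of 33 genes had a higher effect in OVCAR-3 and 0 a lower one by edgeR's quasi-likelihood test, where 12.7% and 6.63% of all 20252 genes were called. The 21 include ABCC2, which had too few counts for the tests of OVCAR-3 and of CAOV3 alone at 72 h. With SKOV3 in place of CAOV3 the counts were again 21 and 0, where 13.0% and 7.82% were called. The median difference was 0.94 and 0.97 on the log2 scale, against 0.00 and -0.06 over all genes. These 2 comparisons share the OVCAR-3 libraries. Between CAOV3 and SKOV3 0 of 33 genes differed, where 0% of all genes were called, and DESeq2 called 0. An unadjusted p under 0.05 was found for 2 of the 33 and for 5.32% of all genes. The 2 were ABCC2, which rests on 0 counts in a group, and PIR (0.44 ± 0.195, adjusted p = 0.917).

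By role, the higher effect in OVCAR-3 covered all 4 NADPH genes and all 3 other targets in both comparisons, and 3 of 5 aldo-keto reductases, 2 of 4 thioredoxin genes, 2 of 3 regulators and 1 of 5 quinone, carbonyl, epoxide and glucuronate enzymes. Of the glutathione genes tested, 4 of 5 were called against CAOV3 and 5 of 5 against SKOV3. Of the transporters 2 and 1 of 4 were called, with ABCC2 among the 2. For OSGIN1 the difference of log2 fold changes was 3.49 ± 0.517 against CAOV3 (adjusted p = 0.00195 by edgeR) and 3.15 ± 0.501 against SKOV3 (adjusted p = 0.00267). GCLC differed by 2.67 ± 0.391 and 2.48 ± 0.39, and AKR1C2, at low counts in OVCAR-3, by 3.28 ± 0.591 and 3.13 ± 0.557. TXNRD1 differed by 1.72 ± 0.275 and 1.80 ± 0.275, GCLM by 1.12 ± 0.219 and 1.08 ± 0.219, and NQO1 by 0.98 ± 0.17 and 1.13 ± 0.17. NFE2L2 itself differed by 0.91 ± 0.172 (adjusted p = 0.00458) and 0.78 ± 0.172 (adjusted p = 0.00931), and KEAP1 by 0.51 ± 0.162 (adjusted p = 0.0396) and 0.62 ± 0.162 (adjusted p = 0.0183). The value of ABCC2 against CAOV3 (6.81 ± 1.33, adjusted p = 0.0064) rests on 0 counts in the CAOV3 libraries with GSK-J4 and is no measure of size. For AKR1B10 the differences were -0.08 ± 0.534 and -0.66 ± 0.642, neither passing.

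Without replicate 1, and likewise without replicate 2, 0 of these differences passed. Each arm then held 1 library of the first set. Of all genes, 0% and 0.0052% were called against CAOV3 in these fits, and 0% and 0% against SKOV3. Without replicate 3, 22 genes were higher and 2 lower against CAOV3, and 23 and 2 against SKOV3, while 41.5% and 42% of all genes were called. With the DESeq2 size factors the calls over all genes against CAOV3 went from 65.7% to 55.4% higher, and those of the 34 genes from 21 and 0 to 19 and 0.

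**Figure D4:**
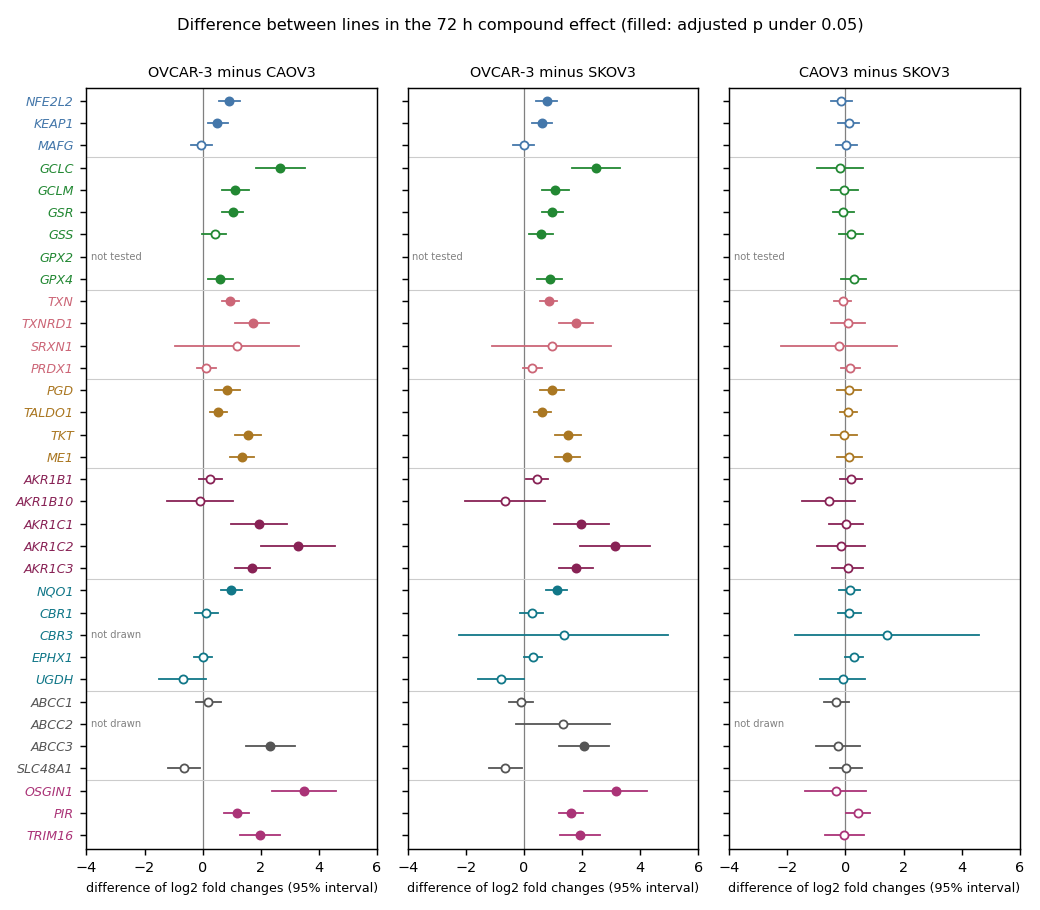
Difference between 2 lines in the log2 fold change of GSK-J4 against GSK-J5 at 72 h, with its 95% interval, for the 34 genes, filled where the adjusted p was under 0.05. The 2 panels with OVCAR-3 hold 21 filled points each, 1 of them (ABCC2 against CAOV3) not drawn, and the panel of CAOV3 minus SKOV3 holds 0; rows marked not drawn have values or intervals beyond the axis or rest on 0 counts.

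Control levels differed between the lines before any effect of GSK-J4. In the GSK-J5 libraries of 72 h, OVCAR-3 was lower than CAOV3 for 21 of 33 genes and higher for 4, where 27.6% and 26.9% of all 19079 genes were called lower and higher. Relative to SKOV3, OVCAR-3 was lower for 27 genes and higher for 1 (28.0% and 29.4% of all genes), and CAOV3 was lower than SKOV3 for 22 and higher for 3 (29.4% and 30.4%). The median log2 difference was -0.78, -1.60 and -0.68 in these 3 comparisons, and between 0.00 and 0.05 over all genes.

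The 3 AKR1C genes spanned the widest range. AKR1C1 was at 0.026 ± 0.0225 RPKM (SD, n = 3) in OVCAR-3, 0.728 ± 0.201 in CAOV3 and 54.4 ± 8.28 in SKOV3, and AKR1C3 at 0.353 ± 0.0619, 1.43 ± 0.462 and 70.7 ± 4.09. For AKR1C1 the log2 difference between OVCAR-3 and SKOV3 was -11.02 ± 0.486 (SE, adjusted p = 1.0e-07 by edgeR), with 20 counts in OVCAR-3. NQO1 was at 24.5 ± 0.574 RPKM in OVCAR-3, 135 ± 11.2 in CAOV3 and 272 ± 85 in SKOV3, and each step passed. ABCC3 was at 0.233 ± 0.178 RPKM in OVCAR-3 and at 22.6 ± 1.36 and 19.6 ± 2.52 in the other lines, which did not differ beyond their spread (log2 0.22 ± 0.263, adjusted p = 0.491). The genes higher in OVCAR-3 than in CAOV3 were ABCC1 (log2 1.09 ± 0.137), PGD (0.67 ± 0.104), UGDH (0.66 ± 0.125) and MAFG (0.56 ± 0.164). Those higher in CAOV3 than in SKOV3 were TRIM16 (1.04 ± 0.265), GCLM (0.60 ± 0.195) and KEAP1 (0.43 ± 0.131). None of these 3 was called higher without replicate 1 or without replicate 2, where 39.9% and 40.5% of all genes were called. In replicate 3, TRIM16 was at 34.8 CPM in CAOV3 and 32.6 in SKOV3, GCLM at 132 and 139, and KEAP1 at 175 and 155. GCLC was at 4.5 ± 1.39, 13.7 ± 0.833 and 14.4 ± 2.75 RPKM, with no called difference between CAOV3 and SKOV3.

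By group means GCLM had another order, with 3.23 ± 0.448 RPKM in OVCAR-3, 16.3 ± 8.15 in SKOV3 and 23 ± 1.33 in CAOV3. In replicate 3 alone, GCLM was not higher in CAOV3 (132 CPM) than in SKOV3 (139 CPM). NFE2L2 was at 15.5 ± 0.0553, 19.2 ± 1.94 and 32.6 ± 2.29 RPKM in OVCAR-3, CAOV3 and SKOV3, and KEAP1 was highest in CAOV3 (45.9 ± 3.26) with 27.5 ± 1.97 in OVCAR-3 and 34.5 ± 6.05 in SKOV3. PGD was the exception among the NADPH genes, at 136 ± 1.97 RPKM in OVCAR-3 and at 86.1 ± 2.79 and 107 ± 10.9 in CAOV3 and SKOV3. Per length, PGD, TXN and PRDX1 were the most abundant of the 34 genes in OVCAR-3 (136, 135 and 132 RPKM), and their order is within the spread of TXN (SD 31.6). With GSK-J4 at 72 h, GCLC in OVCAR-3 reached 27.4 ± 11.4 RPKM and TXNRD1 197 ± 94.3, where CAOV3 with GSK-J5 had 13.7 and 100 and SKOV3 14.4 and 125. These differences were not tested. In replicate 3, OVCAR-3 with GSK-J4 had 608 CPM of TXNRD1, against 688 in CAOV3 and 1260 in SKOV3 with GSK-J5. For GCLC these levels were 125, 119 and 150 CPM.

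**Figure D5:**
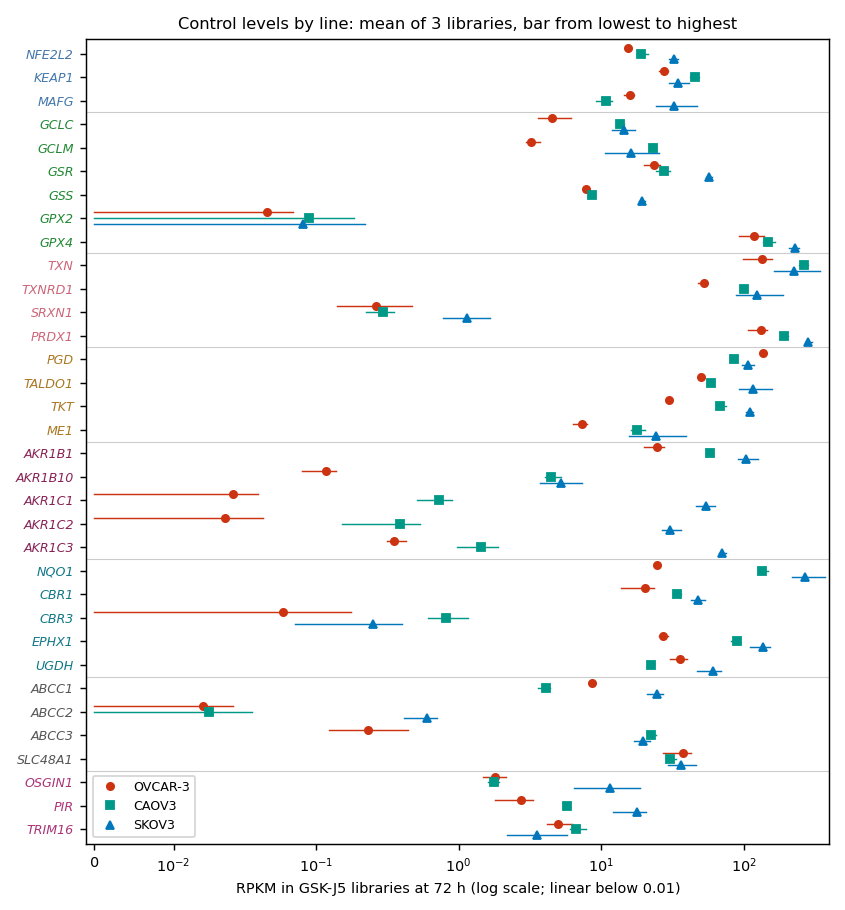
RPKM of the 34 genes in the GSK-J5 libraries of 72 h on a log axis that is linear below 0.01, as the mean of 3 libraries with a bar from the lowest to the highest, in OVCAR-3 (circles), CAOV3 (squares) and SKOV3 (triangles). OVCAR-3 lies lowest for most genes, among them ABCC3 (0.233 against 19.6 and 22.6), AKR1B10 (0.118 against 4.46 and 5.19) and AKR1C1 (0.026 against 0.728 and 54.4).

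A further 96 genes of NRF2 control, glutathione, thioredoxin, NADPH supply, radical removal and detoxification were read beside the 34. In OVCAR-3 at 48 h the 89 tested had a median log2 fold change of 0.22, against -0.03 over all genes. Of the 89, 18 rose and 4 fell, where 11.3% and 7.63% of all genes were called higher and lower. The largest were SLC3A2 (3.09 ± 0.773), the heavy chain of the cystine and leucine transporters, and MAFF (2.55 ± 0.5), a small MAF protein. GSTA4 (-2.29 ± 0.603), a transferase for lipid aldehydes, and MGST2 (-1.20 ± 0.244), a membrane transferase, led those that fell. At 72 h 0 of 88 passed in OVCAR-3 and 0 of 91 in CAOV3. An unadjusted p under 0.05 was found for 45 and 21 of these, and for 43.1% and 16.3% of all genes. In SKOV3 HMOX1 rose (0.60 ± 0.062) and ALDH3A1 fell (-0.96 ± 0.0897), out of 91, where 0.0412% of all genes were called. HMOX1, haem oxygenase and a classic NRF2 and stress target, was at 47, 45 and 573 CPM with GSK-J5 and at 72.8, 67.2 and 864 with GSK-J4 in SKOV3, higher with GSK-J4 within each set. The effect in OVCAR-3 was higher than in CAOV3 for 29 of 94 of these genes and lower for 6, against 12.7% and 6.63% of all genes. SLC3A2 (2.74 ± 0.66) and ALDH1L1 (2.47 ± 0.769), a folate enzyme that makes NADPH, had the largest differences upward among the called genes, and SLC7A11 (-1.34 ± 0.2), the light chain of the cystine importer, and IDH2 (-1.21 ± 0.257), a mitochondrial NADPH source, the largest downward among them. Relative to SKOV3 the effect in OVCAR-3 was higher for 26 and lower for 4, against 13.0% and 7.82% of all genes. The called genes were led by SLC3A2 (3.17 ± 0.663) and MSRA (2.37 ± 0.546), a methionine sulfoxide reductase, and by GSTA4 (-1.93 ± 0.634) and SLC7A11 (-1.09 ± 0.198).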

How the data were processed

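The files hold raw read counts per gene, as the authors deposited them: whole numbers without normalization for 58825 versioned Ensembl identifiers in each of 3 tables, 1 column per library and no unused column. STAR, DESeq2 and GRCh38 (hg38) are named in the submitters' processing notes. How reads were counted, with which strand setting and annotation, is not given in the sources used here. Genes that overlap others (NFE2L2 for 20.9% of its exon bases, NQO1 17.7%, PRDX1 24.9%, TRIM16 28.7%) are therefore uncertain. The gene name table named 58472 identifiers, and all 34 listed genes and all 96 further genes matched. The gene list and all other lists were chosen with earlier results of these data known.

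Counts were tested with edgeR 4.0.16 in R 4.3.3: filterByExpr with a minimum count of 10, TMM scaling, robust quasi-likelihood fits, and Benjamini-Hochberg adjustment over all genes tested at 0.05. OVCAR-3 at 48 h and the time interaction used the 10 OVCAR-3 libraries, each line at 72 h its own 6 libraries, line differences the 18 libraries of 72 h, and control levels the 9 GSK-J5 libraries. All fits had a term for the library set. Log2 fold changes carry the SE implied by the F statistic. Levels are CPM with 1 TMM scaling over 22 libraries, and exon lengths and gene coordinates come from GENCODE 29 (GRCh38). Genes were named by a rule: those called with the 3 largest changes in each direction, otherwise the 4 smallest p-values, and 8 genes always. Alternatives were DESeq2 1.42.0, its size factors in edgeR, no count filter, no set term, a replicate block, libraries left out in turn, other pools of libraries and summed AKR1C paralogs.

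Replicate numbers paired the libraries only in SKOV3, where the correlations of same-numbered deviations were 0.293, 0.292 and 0.66, and replicate 3 is also the library set. With the replicate block in SKOV3, 0 of 33 genes were called, as without it. Replicates within a group differed beyond sampling noise (lowest chi-square per degree of freedom 8.06). On counts simulated for OVCAR-3 at 48 h (16701 genes), the test recovered 82% of genes changed 2-fold and 99% of those changed 4-fold. For the difference between OVCAR-3 and CAOV3 (18193 genes) it recovered 59% and 98%. These counts were drawn with a dispersion of 0.02 and no difference between library sets. In OVCAR-3 with GSK-J4 at 72 h, replicate 3 differed from replicates 1 and 2 with a chi-square per degree of freedom of 285 and 280. The simulation therefore does not give the power on these libraries. At 72 h in OVCAR-3 it recovered 91% and 100%, where the test on the real counts called 0 of the 30 genes.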

Additional observations from a re-analysis of the deposited data

Results flagged for a closer look

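The effect of GSK-J4 differed between OVCAR-3 and each other line by a test of the difference itself. In that fit the spread of a gene is shared by the lines. The effect was higher in OVCAR-3 for 21 of 33 genes against CAOV3 and for 21 of 33 against SKOV3, and lower for 0. Of all genes, 12.7% and 13.0% were called higher and 6.63% and 7.82% lower. The counts of 21 were 7 and 7 without the set term, where 3.53% and 4.14% of all genes were called. They were 0 without replicate 1 or without replicate 2, where 0% to 0.0052% of all genes were called. Apart from ABCC2, the largest differences of log2 fold changes against CAOV3 were 3.49 for OSGIN1 and 3.28 for AKR1C2. The value of ABCC2, 6.81, rests on 0 counts in 1 group and is no measure of size. Against SKOV3 they were 3.15 for OSGIN1, 3.13 for AKR1C2 and 2.48 for GCLC.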

How the results depend on the processing

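Of the alternative values for single named genes, 1199 kept their direction and side of the threshold, 112 lost and 129 gained a call, 59 changed sign without a call and 1 reversed: OSGIN1 between 72 h and 48 h in OVCAR-3, 0.68 without replicate 3, and -0.76 to 0.68 with replicates left out. Counts of called genes moved as follows, each with the share of all genes called in parentheses, and the causes were not tested. In OVCAR-3 at 48 h (7 called, 18.9%) the count was 13 with DESeq2 (33.7%), 12 without a count filter (12.9%), 4 without the set term (4.66%) and 0 with the replicate block (0%). It was 23 from the 4 libraries of 48 h alone (62%) and 23 without replicate 3 of 72 h (59%). In OVCAR-3 at 72 h (0 called) it was 21 with DESeq2 (37.7%), 13 without a filter (4.56%), 22 from all 10 OVCAR-3 libraries (43.8%) and 26 from the 18 libraries of 72 h (37.7%). It was 0 to 27 with libraries left out (0% to 71.7%). In CAOV3 (0 called) it was 1 with DESeq2 (3.9%) and 1 without a filter (3.27%), and 0 to 8 with libraries left out (0% to 14.4%). SKOV3 stayed at 0 under each alternative run. For the time difference (0 called) it was 4 with DESeq2 (1.4%), and 20 without replicate 3 (27%). For OVCAR-3 minus CAOV3 and OVCAR-3 minus SKOV3 (21 called each, 19.3% and 20.8%) it was 7 and 7 without the set term (3.53% and 4.14%). It was 17 and 19 with the replicate block (6.6% and 6.39%), and 0 to 24 (0% to 41.5%) and 0 to 25 (0% to 42%) with replicates left out. CAOV3 minus SKOV3 stayed at 0, and control counts stayed within 1.5 times. Of the control calls, the 3 genes higher in CAOV3 than in SKOV3 went to 0 without replicate 1 or without replicate 2 (39.9% and 40.5%). The block left the 0 of the 72 h effects and of the time difference at 0. Replicate numbers did not pair the libraries of OVCAR-3 and CAOV3, where same-numbered correlations ran from -0.074 to 0.163. Depth limits GPX2, CBR3, ABCC2, AKR1B10 and, in OVCAR-3, AKR1C1 and AKR1C2.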

Other observations

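The HMOX1 level in SKOV3 followed the library set: it held 1415 to 2615 counts in replicates 1 and 2 and 13775 and 22239 in replicate 3.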
